A study of Mus musculus with 10 samples.

Results

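Satellite glia are the cells that wrap the bodies of sensory neurons in the dorsal root ganglia (DRG) and in their counterpart of the head, the trigeminal ganglia (TG), and 9 transcripts that mark them were followed here through libraries of sorted neurons: Apoe, Fabp7, Glul, Slc1a3, Kcnj10, Gja1, Cdh19, Sparcl1 and Sox10. They were chosen by symbol from the 45952 genes of the authors' expression table, as genes known for this cell type. All 9 reached 1 FPKM or more in 2 or more libraries of DRG or of TG, the limit that 12637 genes passed. FPKM are fragment numbers scaled for transcript length and library depth, so levels can be set side by side between genes on a per-length scale.

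The cells were GFP-positive neurons of lumbar DRG (6 libraries, 3 male and 3 female) and of TG (4 libraries, 2 male and 2 female), isolated by FACS from naive adult mice that carry the transgene Tg(Avil-EGFP)QD84Gsat/Mmucd on a CD1 background. Every library came from a single mouse and from a small fixed number of GFP-positive, propidium iodide-negative events, whose RNA was amplified. GFP follows the advillin promoter, which is active in sensory neurons, so the gate was set on a neuronal marker and not on a glial one, and the labels of all 10 libraries name satellite glial cells as a contaminant. Both ganglia came from the same kind of animal, and no injury or treatment was applied.

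Satellite glia descend from the neural crest and form a closed sheath around each neuron. They take up potassium and glutamate from the narrow cleft next to the neuron, turn glutamate into glutamine, pass small molecules to one another through gap junctions, and carry lipids. In bulk RNA, fewer glia and less RNA per glial cell cannot be told apart, and the values do not show which cells of a library the RNA came from.

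The summed FPKM of all genes ranged over 543862 to 870872 in DRG and 563021 to 646684 in TG. Depth was judged from the most frequent FPKM ratio of very low genes to male DRG replicate 1. It differed by at most a factor of 1.5 between libraries. The estimate is rough, since only 20.4% to 33.1% of these genes lay at or next to that ratio. Male DRG replicate 3 stood apart, with the highest sum and a median rank correlation of 0.849 with the other libraries. In that library genes with short transcripts had high values and genes with long transcripts low ones: the median deviation from the mean over 10 libraries was 0.67 on the log2 scale in the fifth of genes with the shortest transcripts and -0.51 in the fifth with the longest. Avil, the gene whose promoter drives the GFP, had 172 FPKM there, against 555 to 1118 FPKM in the other DRG libraries and 888 to 1220 FPKM in TG. Female DRG replicates 1 and 3 had the next lowest median rank correlations (0.869 and 0.895) and a length trend in the other direction. Their median deviations were -0.18 and -0.22 in the fifth with the shortest transcripts, and 0.30 and 0.19 in that with the longest. Means, fold changes and correlations were also computed without male DRG replicate 3, and fold changes without these 3 libraries.

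**Figure D1:**
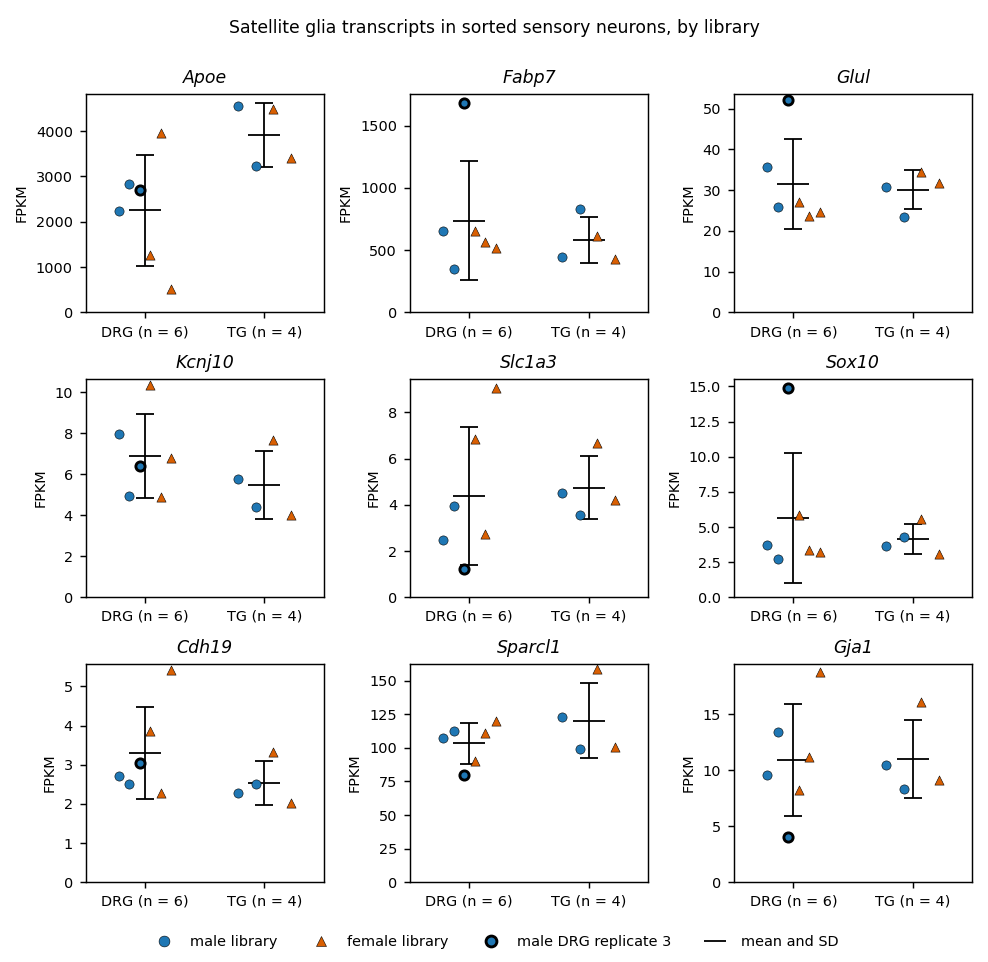
FPKM of the 9 satellite glia transcripts in each library of sorted DRG neurons (left of each panel, n = 6) and TG neurons (right, n = 4). Circles are male and triangles female libraries, the thick outline marks male DRG replicate 3, and bars show the mean and SD; every axis starts at 0. The DRG and TG points overlap in all 9 panels, and Fabp7 (1685 FPKM) and Sox10 (14.9 FPKM) are far above the other DRG libraries in male DRG replicate 3.

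Apoe encodes apolipoprotein E, which glia secrete to carry cholesterol and phospholipid, and it lies on chromosome 7 (GRCm38 chr7:19696109-19699188, minus strand). It was the most abundant of the 9 transcripts. In the DRG libraries its FPKM ran between 520 and 3954 with a median of 2466, and in the TG libraries it was 4560, 3222, 4477 and 3396. All TG values were above 5 of the 6 DRG libraries, and the groups overlapped through female DRG replicate 2 (3954 FPKM), which was above 2 of the TG libraries. In the 4 pairs of DRG and TG libraries that share a number in the sample descriptions, Apoe was lower in DRG in 4 of 4. Apoe ranked between 3 and 156 among all 45952 genes of a library, with a median rank of 12.5. The lowest value, 520 FPKM in female DRG replicate 3, was 2.27 below the mean over the libraries on the log2(FPKM + 1) scale, and only 1.01% of 1282 tested genes of like transcript length (within 20% of 1408 bases) deviated further down there.

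Other apolipoproteins and lipoprotein receptors were detected for 12 of 14 listed genes. Clu, which encodes the secreted lipid carrier clusterin, averaged 468 ± 97.0 FPKM in DRG neurons and 380 ± 101 FPKM in TG neurons (SD, n = 6 and 4). Abcg1, a sterol exporter, averaged 64.0 ± 18.2 FPKM in DRG and 80.1 ± 6.22 FPKM in TG. Apod, a lipocalin of glia and fibroblasts, was at 15.9 ± 8.66 FPKM in DRG and 17.7 ± 7.71 FPKM in TG.

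Fabp7, the brain-type fatty acid binding protein of radial and satellite glia, lies on chromosome 10 (chr10:57784881-57788450, plus strand). Its FPKM in the DRG libraries ran between 351 and 1685 with a median of 608, and in the TG libraries it was 445, 832, 613 and 430. The groups overlapped throughout, and without male DRG replicate 3 no DRG library exceeded the highest TG library. Of the fatty acid binding proteins, Fabp5 averaged 260 ± 138 FPKM in DRG and 195 ± 33.9 FPKM in TG, and Fabp3 152 ± 61.8 FPKM in DRG and 145 ± 33.3 FPKM in TG. Pmp2, the member of the family found in myelin, averaged 0.0731 FPKM in DRG and 0.264 FPKM in TG.

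Glul encodes glutamine synthetase, the enzyme that makes glutamine from glutamate and ammonia, and lies on chromosome 1 (chr1:153899944-153909723, plus strand). Its FPKM in the DRG libraries ran between 23.7 and 52.1 with a median of 26.5, and in the TG libraries it was 30.9, 23.3, 34.5 and 31.7. All TG values lay inside or just below the DRG range. Slc1a3, the glutamate and aspartate transporter GLAST, lies on chromosome 15 (chr15:8634124-8710764, minus strand). It was less abundant than Glul in every library: its FPKM ran between 1.20 and 9.06 with a median of 3.33 in DRG, and was 4.49, 3.55, 6.69 and 4.21 in TG. The other glial glutamate transporter gene, Slc1a2, stayed between 0.267 and 1.06 FPKM in DRG and between 0.493 and 1.43 FPKM in TG.

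Kcnj10 encodes Kir4.1, the inwardly rectifying potassium channel by which satellite glia take up potassium, and lies on chromosome 1 (chr1:172341210-172374085, plus strand). Its FPKM ran between 4.89 and 10.3 with a median of 6.59 in DRG, and was 5.75, 4.40, 7.67 and 4.03 in TG. Of 14 other inward rectifiers only 3 were detected, and Kcnj10 had the highest mean of the family over the 10 libraries. Kcnj12 averaged 5.59 ± 2.13 FPKM in DRG and 4.69 ± 0.775 FPKM in TG, Kcnj3 4.08 ± 0.996 FPKM in DRG and 3.55 ± 1.66 FPKM in TG, and Kcnj11 1.61 ± 1.77 FPKM in DRG and 2.03 ± 0.892 FPKM in TG.

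Gja1 encodes connexin 43, the subunit of gap junctions between satellite glia, and lies on chromosome 10 (chr10:56377330-56402513, plus strand). Its FPKM ran between 4.01 and 18.8 with a median of 10.4 in DRG, and was 10.5, 8.36, 16.1 and 9.12 in TG. Of the other connexin genes only Gjc3, a connexin of myelinating glia, was detected. It averaged 2.51 ± 1.37 FPKM in DRG and 1.31 ± 0.293 FPKM in TG, and between 12 and 18 of the 22 other connexins and pannexins were listed at 0 in a library. The channel-forming pannexin gene Panx1 averaged 17.4 ± 3.10 FPKM in DRG and 17.5 ± 2.28 FPKM in TG.

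Cdh19, a cadherin of neural crest-derived glia, lies on chromosome 1 (chr1:110888326-110977584, minus strand). Its FPKM ran between 2.28 and 5.41 with a median of 2.88 in DRG, and was 2.27, 2.51, 3.34 and 2.03 in TG. Of 15 other listed cadherins 10 were detected. Some were at higher levels, with Cdh1 at 42.2 ± 19.5 FPKM in DRG and 78.2 ± 23.3 FPKM in TG and Cdh11 at 9.48 ± 3.94 FPKM in DRG and 8.83 ± 1.63 FPKM in TG. Sparcl1 encodes hevin, a matrix protein that glia secrete, and lies on chromosome 5 (chr5:104079111-104113733, minus strand). Its FPKM ran between 79.9 and 120 with a median of 109 in DRG, and was 123, 99.0, 159 and 100 in TG. It was the steadiest of the 9 transcripts in DRG, with a coefficient of variation of 0.148. Its relatives Sparc and Fstl1 were higher. Sparc averaged 345 ± 355 FPKM in DRG (201 FPKM without male DRG replicate 3) and 272 ± 67.7 FPKM in TG, and Fstl1 1113 ± 422 FPKM in DRG and 843 ± 105 FPKM in TG.

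Sox10 encodes a transcription factor of the high mobility group that neural crest-derived glia need throughout life, and lies on chromosome 15 (chr15:79154908-79165240, minus strand). Its FPKM ran between 2.75 and 14.9 with a median of 3.56 in DRG, and was 3.62, 4.31, 5.60 and 3.05 in TG. The next highest DRG library after male DRG replicate 3 had 5.85 FPKM. That library's Sox10 value was 1.54 above the mean on the log2 scale, whereas the median of 2746 genes of like transcript length was -0.38 there, so that it exceeded 99.2% of them. Among other genes of the Sox family, Sox5, Sox11, Sox12 and Sox13 passed the limit of detection and Sox2, Sox8 and Sox9 did not. Sox2 had 0.662 to 1.42 FPKM in DRG and 0.337 to 0.905 FPKM in TG, Sox8 at most 0.469 FPKM in DRG and 0.118 FPKM in TG, and Sox9 at most 0.347 FPKM in DRG and 0.0635 FPKM in TG. The 15 other listed Sox and neural crest glial factors summed to 9.27 to 17.4 FPKM in DRG and 10.1 to 11.5 FPKM in TG. Erbb3, the neuregulin receptor of the same lineage, averaged 2.45 ± 1.46 FPKM in DRG and 1.75 ± 0.441 FPKM in TG.

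Sox factors bind short sequences such as ACAAAG and ACAATG. These letters were looked for on both strands in the 250 bases before each start site in RefSeq (GRCm38.p6), which held a window for 6 of the 9 genes (8 windows, 3 of them of Apoe). Of the 8 windows, 1 held a match, and of all 32851 windows 25.2% did. The window was that of the outermost start of Apoe, the most abundant of the 9 transcripts, and is shown with the matches in capitals, the first 144 and the second (on the other strand) 54 bases before the start.
Apoe, chr7:19699189-19699438, minus strand: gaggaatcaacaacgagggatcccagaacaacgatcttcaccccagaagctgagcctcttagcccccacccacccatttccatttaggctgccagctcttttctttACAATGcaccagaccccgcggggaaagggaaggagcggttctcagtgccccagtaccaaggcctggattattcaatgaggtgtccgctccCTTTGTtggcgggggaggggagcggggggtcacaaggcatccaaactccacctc
A match describes the letters only and is no sign that the site is bound.

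The order of the levels was alike in both ganglia. In DRG neurons the mean FPKM were 2248 for Apoe, 737 for Fabp7, 104 for Sparcl1, 31.5 for Glul, 10.9 for Gja1, 6.88 for Kcnj10, 5.64 for Sox10, 4.37 for Slc1a3 and 3.30 for Cdh19. In TG neurons they were 3914 for Apoe, 580 for Fabp7, 120 for Sparcl1, 30.1 for Glul, 11 for Gja1, 5.47 for Kcnj10, 4.74 for Slc1a3, 4.14 for Sox10 and 2.54 for Cdh19. In DRG the library ranges of Apoe and Fabp7 overlapped, those of Fabp7, Sparcl1, Glul and Gja1 did not overlap from one gene to the next, and the ranges of the last 5 genes in the order all overlapped their neighbours. Without male DRG replicate 3 the DRG mean of Sox10 was 3.796 FPKM, below that of Slc1a3 (5.01 FPKM), and that of Fabp7 was 547 FPKM. The DRG means of both Sox10 and Fabp7 were then below the TG means, and those of Slc1a3 and Gja1 (12.3 FPKM) above them. In TG only the last 4 genes overlapped their neighbours. The 9 transcripts together made up 0.217% to 0.788% of the summed FPKM in DRG libraries and 0.649% to 0.933% in TG libraries. Without Apoe the other 8 made up 0.0951% to 0.212% in DRG libraries and 0.104% to 0.151% in TG libraries, and in female DRG replicate 3 they outweighed Apoe (0.125% for the 8, 0.0923% for Apoe).

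Whether DRG and TG neurons differ in these transcripts was tested with limma on log2(FPKM + 1), with sex as a second term and p-values adjusted over all 12637 genes. Of the 9 transcripts 0 passed at an adjusted p of 0.05, and 1, Apoe, had an unadjusted p under 0.05, while among all genes tested 0.111% passed and 6.35% had an unadjusted p under 0.05. For Apoe the log2 fold change (DRG over TG) was -1.04 with a standard error of 0.45 and a 95% interval of -2.02 to -0.058 (limma adjusted p = 0.772). Leaving out female DRG replicate 3, the library with the lowest Apoe level, gave -0.68, more than 1.5 times closer to 0. This fit did not use the pairs of libraries that share a number in the sample descriptions. With a block for these pairs, over 8 libraries, Apoe was at -0.96 (limma adjusted p = 0.633). In that fit 0 of the 9 transcripts passed, against 17 of 12142 genes. The libraries of the ganglia did not separate for any of the 9 transcripts, and for 1.95% of all genes tested they did.

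For the other 8 transcripts the log2 fold change lay between -0.25 (Slc1a3) and 0.28 (Kcnj10), with adjusted p of 0.857 to 0.989 for the same limma fit. Both named values moved by more than 1.5 times with 1 library left out: Slc1a3 was -0.086 without male DRG replicate 3 and -0.44 without female TG replicate 2, and Kcnj10 was 0.13 when female TG replicate 2 was left out and 0.43 when female TG replicate 1 was. The 95% intervals show how large a difference the libraries leave possible: -0.59 to 1.01 for Fabp7, -0.52 to 0.56 for Glul, -0.30 to 0.86 for Kcnj10, -0.99 to 0.49 for Slc1a3, -0.65 to 1.02 for Sox10, -0.28 to 0.80 for Cdh19, -0.65 to 0.25 for Sparcl1 and -0.81 to 0.63 for Gja1. The narrowest was that of Sparcl1. The signs of the values for Fabp7, Glul, Sox10 and Gja1 turned when male DRG replicate 3 was left out (-0.069, -0.13, -0.13 and 0.11), so no direction is given for them.

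**Figure D2:**
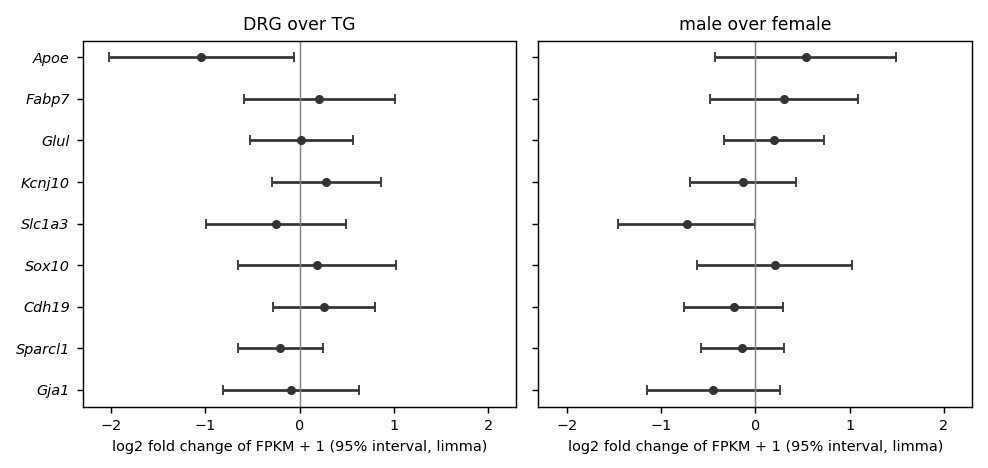
Fitted log2 fold change of FPKM + 1 for the 9 satellite glia transcripts, DRG over TG (left) and male over female (right), with the 95% interval from limma over 10 libraries. Only the interval of Apoe between the ganglia (-2.02 to -0.058) and that of Slc1a3 between the sexes (-1.45 to -0.0029) leave out 0, and neither passed after adjustment.

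Between the sexes, with ganglion as a term, 0 of the 9 transcripts passed in limma and 1, Slc1a3, had an unadjusted p under 0.05, against 0.0237% and 4.1% of all genes tested. Slc1a3 had 2.46, 3.94, 1.20, 4.49 and 3.55 FPKM in the male libraries, and 6.85, 2.72, 9.06, 6.69 and 4.21 FPKM in the female libraries. The values of 6.85 and 9.06 FPKM were from female DRG replicates 1 and 3, where genes with long transcripts had high values. The part of length (4163 bases for Slc1a3) was not tested. The sexes overlapped, since the female DRG library with 2.72 FPKM was below 3 of the male libraries. The sexes separated for 0 of the 9 transcripts and for 0.791% of all genes tested. Its log2 fold change (male over female) was -0.73 with a standard error of 0.33 (limma adjusted p = 0.816), and it was -0.53 without male DRG replicate 3, -0.31 with array weights, which count variable libraries less, and -0.14 without male DRG replicate 3 and female DRG replicates 1 and 3. For the other 8 transcripts the log2 fold change lay between -0.45 (Gja1) and 0.53 (Apoe), with adjusted p of 0.816 to 0.903. Gja1 was -0.20 without male DRG replicate 3, and Apoe 0.099 without female DRG replicate 3. The interaction of ganglion and sex passed for 0 of the 9 transcripts and 0 of 12637 genes (limma, with 0 of the 9 and 1.17% of all genes at an unadjusted p under 0.05), and its standard errors on the log2 scale were 0.44 to 0.91, against 0.21 to 0.45 for the ganglion term.

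The same 9 transcripts were set beside the authors' mean FPKM for DRG preparations of an earlier study, in which neurons were sorted magnetically by depleting other cells or left unsorted after dissociation. These means were normalized separately from the libraries here, and the values of single libraries behind them were not used, so no test was made and levels across the tables are given as a description. Magnetically sorted cells had 35.1 FPKM of Apoe, against 3212 FPKM in dissociated cells. Fabp7 was at 3.8 FPKM in magnetically sorted cells and 245 FPKM in dissociated cells, and Kcnj10 at 0.119 FPKM in magnetically sorted cells and 20.5 FPKM in dissociated cells. The ratio of sorted over dissociated was at most 0.25 for 8 of the 9 transcripts, between 0.0058 for Kcnj10 and 0.226 for Gja1, while it was at most 0.25 for 5.75% of the 11243 detected genes with a mean of at least 1 in dissociated cells, whose median ratio was 0.994. Glul was the exception, with 101 FPKM in magnetically sorted and 151 FPKM in dissociated cells (ratio 0.672). With 1 added to each mean, Gja1 was at 0.272 and also above the limit.

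In the FACS-sorted neurons 8 of the 9 transcripts, all but Glul, stood higher than in magnetically sorted cells. The ratio of the mean FPKM, FACS DRG over magnetically sorted DRG, was at least 3 for 8 of the 9, against 18.1% of the 12027 detected genes above 0 in the sorted mean. It was 194 for Fabp7, 64.0 for Apoe, 58.0 for Kcnj10, 37.9 for Slc1a3, 7.31 for Sox10, 5.56 for Cdh19, 5.30 for Sparcl1 and 3.11 for Gja1, and 0.311 for Glul. The magnetically sorted means were below 1 FPKM for Kcnj10 (0.119), Slc1a3 (0.115), Sox10 (0.772) and Cdh19 (0.594). Ratios over such low means are uncertain, and they were not computed again with 1 added to each mean. Set against dissociated cells instead, FACS DRG neurons had 3.01 times the Fabp7, 0.889 times the Slc1a3, close to 0.70 times the Apoe, Gja1 and Sparcl1 (0.700, 0.701 and 0.694), 0.336 times the Kcnj10, 0.216 times the Sox10, 0.209 times the Glul and 0.180 times the Cdh19. The transcripts thus did not keep 1 common ratio to dissociated cells, with a range of 0.180 to 3.01. The Fabp7 ratios were raised by male DRG replicate 3: without it the DRG mean was 547 FPKM, against 245 FPKM in dissociated cells.

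**Figure D3:**
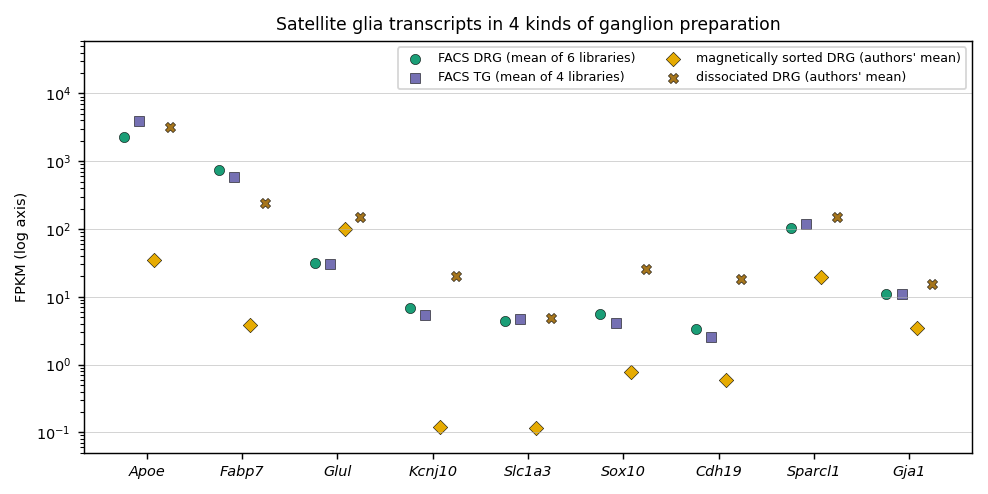
Mean FPKM (log axis) of each satellite glia transcript in FACS-sorted DRG neurons (circles, 6 libraries), FACS-sorted TG neurons (squares, 4 libraries), magnetically sorted DRG cells (diamonds, the authors' mean) and dissociated DRG cells (crosses, the authors' mean). The diamonds are lowest for every gene but Glul, where the FACS-sorted neurons (31.5 FPKM in DRG and 30.1 FPKM in TG) are lowest.

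Other cell types of the ganglion were compared in the same way, over the genes of each list with a mean of at least 1 FPKM in dissociated cells. The median ratio of FACS DRG over dissociated DRG was 0.694 for the 9 transcripts and 0.587 for 21 other satellite glia markers, against 0.0758 for 18 Schwann cell and myelin markers, 0.0608 for 10 macrophage markers, 0.0363 for 12 fibroblast markers and 0.0146 for 10 endothelial and mural markers. For 16 pan-neuronal genes it was 1.21, and for all 12969 such genes 0.645. The macrophage marker Aif1 was below 1 FPKM in dissociated cells and so is not among the 10, but had 5.58 to 16.2 FPKM in the FACS DRG libraries. Among the 984 other genes with a sorted over dissociated ratio of at most 0.25, the median ratio of FACS DRG over dissociated DRG was 0.260, and for the 8 transcripts past the same limit it was 0.697.

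Of 22 further satellite glia markers, the median level in a library was 17.9 to 38.2 FPKM in DRG and 26.2 to 38.3 FPKM in TG, and the most abundant were Cd9, Dbi and S100b. Cd9, a tetraspanin, averaged 1939 ± 708 FPKM in DRG and 1269 ± 138 FPKM in TG, Dbi, an acyl-CoA binding protein, 673 ± 420 FPKM in DRG and 408 ± 144 FPKM in TG, and S100b, a calcium-binding protein of glia, 535 ± 267 FPKM in DRG and 324 ± 82.1 FPKM in TG. Without male DRG replicate 3 the DRG means were 1684 FPKM for Cd9, 517 FPKM for Dbi and 434 FPKM for S100b. Of the 22 markers 19 were detected, and between the ganglia 0 of 19 passed in limma and 1 had an unadjusted p under 0.05, against 0.111% and 6.35% of all genes tested. Gfap, which satellite glia switch on after nerve injury, had at most 0.668 FPKM in DRG and 0.329 FPKM in TG.

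Markers of other cells of the ganglion were summed in each library. Of 18 Schwann cell and myelin markers 14 were detected, and their summed FPKM was 978 to 1503 in DRG and 1467 to 2029 in TG, most of it from Pmp22, a myelin protein gene. The log2 fold change (DRG over TG) was positive for 2 of these 14, against 44.3% of all genes tested. Before adjustment, limma gave p under 0.05 for 5 of them and for 6.35% of all genes, and after it 0 passed, against 0.111% of all genes. The 5 did not all go in the same direction, and most were higher in TG. Of 16 macrophage markers 4 were detected and 5 to 12 were listed at 0 in a DRG library and 6 to 11 in a TG library, and their summed FPKM was 8.14 to 23.0 in DRG and 9.21 to 16.5 in TG. Most of that sum was from Aif1 (5.58 to 16.2 FPKM in DRG and 6.53 to 14.9 FPKM in TG). The summed FPKM of 12 fibroblast markers was 15.9 to 34.3 in DRG and 11.7 to 33.5 in TG, and that of 10 endothelial and mural markers 2.60 to 7.83 in DRG and 4.53 to 7.0 in TG. Whether RNA of these cells had a part in the levels of the 9 transcripts was not tested.

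**Figure D4:**
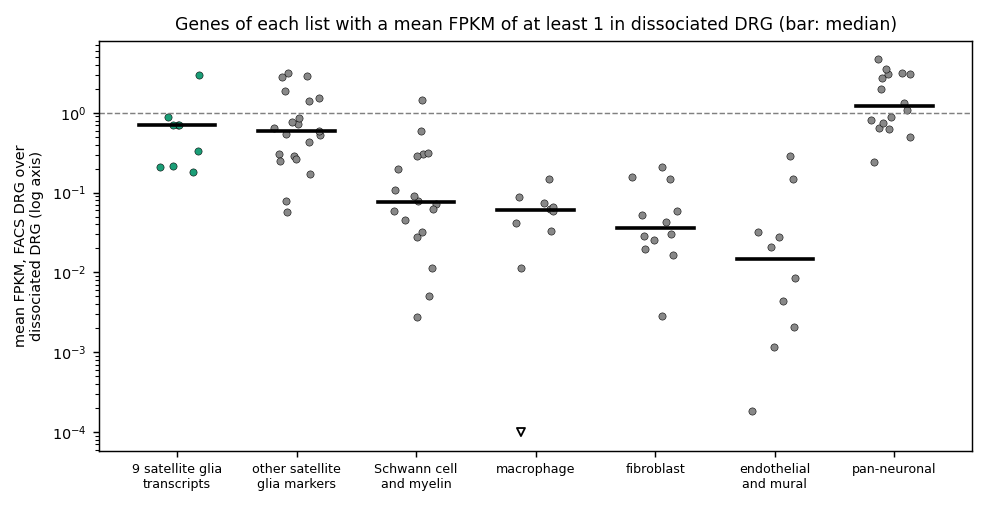
Ratio of the mean FPKM in FACS-sorted DRG neurons over the authors' mean in dissociated DRG (log axis) for each gene of 7 lists with at least 1 FPKM in dissociated DRG; bars are medians, the dashed line marks equal levels, and an open triangle marks a gene listed at 0 in the FACS libraries. The medians of both satellite glia lists (0.694 and 0.587) lie between that of pan-neuronal genes (1.21) and those of the lists of other non-neuronal cells (0.0758 and below).

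The 9 transcripts did not all move together from library to library. The coefficient of variation ran between 0.148 (Sparcl1) and 0.823 (Sox10) in DRG and between 0.160 (Glul) and 0.323 (Fabp7) in TG, against medians of 0.386 in DRG and 0.194 in TG over the 9952 tested genes with a mean FPKM of at least 2. In male DRG replicate 3, Fabp7, Glul and Sox10 had their highest DRG values, and Slc1a3, Sparcl1 and Gja1 their lowest. In female DRG replicate 3, Slc1a3, Cdh19, Sparcl1 and Gja1 had their highest DRG values, and Apoe its lowest. In TG, female TG replicate 1 had the highest value of 7 of the 9 transcripts, with Apoe and Fabp7 as the exceptions.

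**Figure D5:**
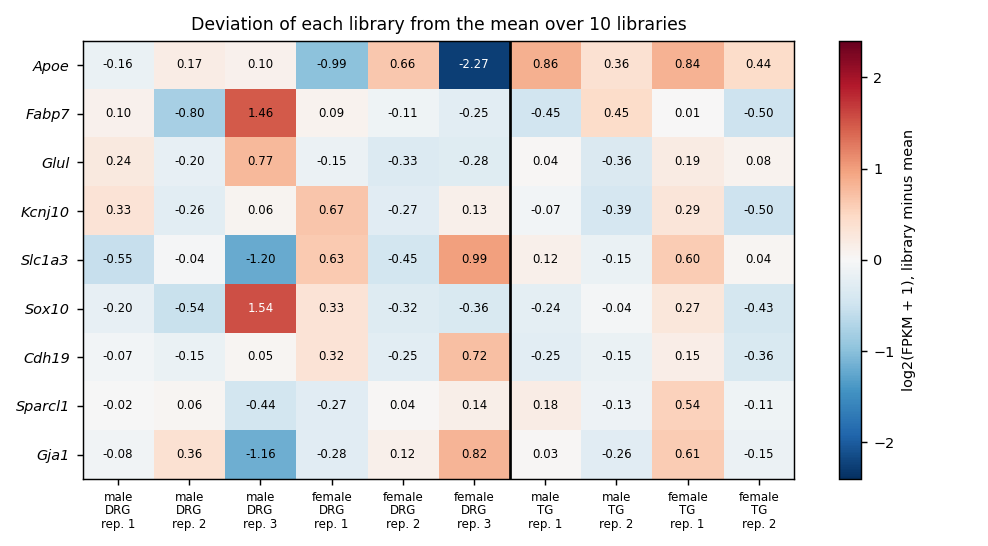
Deviation of each library from the mean over the 10 libraries, in log2(FPKM + 1), for the 9 satellite glia transcripts (rows); the 6 DRG libraries are left and the 4 TG libraries right of the black line. In male DRG replicate 3 Fabp7 (1.46) and Sox10 (1.54) were high while Slc1a3 (-1.20) and Gja1 (-1.16) were low, and Apoe was lowest in female DRG replicate 3 (-2.27).

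Of the 36 pairs of transcripts, 21 had a positive and 15 a negative Pearson correlation over the 10 libraries, and 0 passed by r after adjustment over the 36 pairs (8 had a permutation p under 0.05 before it). Within the 6 DRG libraries 0 of the 36 pairs had an adjusted p under 0.05. The smallest exact p that 6 libraries allow is 0.00139, which is adjusted to 0.05 where a lone pair reaches it. A lone pair could thus not pass, however strong. Fabp7 with Sox10, Gja1 with Sparcl1 and Apoe with Cdh19 each had an adjusted exact permutation p of 0.05. The exact p given below for DRG are unadjusted. Fabp7 and Sox10 had r = 0.91 (permutation p = 0.0019, adjusted p = 0.0654) and rho = 0.87 (permutation p = 0.00241, adjusted p = 0.0434), so this pair passed by rank only. Within the 6 DRG libraries r was 0.95 (exact permutation p = 0.00278). It was 0.57 without the 2 libraries farthest from the median of Fabp7, male DRG replicates 2 and 3, and was 0.68 without male DRG replicate 3 alone.

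Gja1 and Sparcl1, both high in female TG replicate 1 and low in male DRG replicate 3, had r = 0.84 (permutation p = 0.00475, adjusted p = 0.0654) and rho = 0.90 (permutation p = 0.00089, adjusted p = 0.032), and likewise passed by rank only. Without the 2 libraries farthest from the median of Sparcl1 r was 0.73, without male DRG replicate 3 it was 0.76, and within the DRG libraries it was 0.95 (exact permutation p = 0.00139). Apoe and Cdh19 had r = -0.86 (permutation p = 0.00545, adjusted p = 0.0654) and rho = -0.67 (permutation p = 0.0385, adjusted p = 0.346), and r = -0.98 within the 6 DRG libraries (exact permutation p = 0.00417). This relation rested on female DRG replicates 1 and 3: without them r was -0.13. In both of these libraries genes with short transcripts had low values and genes with long transcripts high ones. Gja1 was negatively correlated with Fabp7 (r = -0.74) and Sox10 (r = -0.72) over 10 libraries, but with r = -0.34 and -0.19 once male DRG replicate 3 was left out. In male DRG replicate 3, where short transcripts had high values, Fabp7 (880 bases), Sox10 (2780) and Glul (2792) deviated upward, and Sparcl1 (2759), Gja1 (3182) and Slc1a3 (4163) downward. Apoe (1408 bases), Cdh19 (3914) and Kcnj10 (5407) stayed near their means there (0.10, 0.053 and 0.063 on the log2 scale). The part of length in the correlations was not tested.

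The genes whose pattern over the 10 libraries was most like that of each transcript were picked by r among the 12637 tested. By Pearson r of log2(FPKM + 1), given as a description, they were Ndufb9, Psmb1 and Ndufb6 for Fabp7 (r = 0.99, 0.99 and 0.99) and Tnip2, Lrrc24 and Itm2b for Apoe (0.98 each). They were Ndufb5, Ptn and Pla2g16 for Sox10 (0.97, 0.97 and 0.96), Gm9824 and Gm6180 for Glul (0.96 and 0.88), Pxylp1, Rnf219 and Eif2a for Slc1a3 (0.97, 0.94 and 0.94), and Ythdc1, Lsm14a and Pias2 for Kcnj10 (0.97, 0.93 and 0.91). For Sparcl1 they were Syt12 and Dffa (0.96 and 0.92), and for Gja1 Cep120, Tmx2 and Alkbh8 (0.94, 0.94 and 0.93).

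For Cdh19 they were Gm4613 (r = 0.95) and Itgb8 (0.94), an integrin subunit with an authors' mean of 0.303 FPKM in magnetically sorted and 23.5 FPKM in dissociated cells. Among the 50 genes most like Cdh19, 15.4% of the 39 with a dissociated mean of at least 1 FPKM had a sorted over dissociated ratio of at most 0.25; for the other transcripts this share was between 2% (Gja1) and 12.8% (Kcnj10), with 5.75% for all genes. The median transcript length of the 50 genes most like Fabp7 was 797 bases and of those most like Sox10 1117 bases, against 3088 bases over all genes tested. The highest median r with the 9 transcripts was 0.55, that of Gm11642, which averaged 1.04 FPKM in DRG and 0.926 FPKM in TG.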

How the data were processed

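RNA of FACS-sorted Avil-GFP neurons from 6 DRG and 4 TG libraries was analysed. Per the labels and methods, the authors prepared libraries with a SMARTer ultra low input kit, aligned reads with STAR to mm10 and used Cufflinks to make the deposited FPKM per gene and library. FPKM are scaled for depth and transcript length, and no read counts were used, so precision rests on the spread between libraries. Values per sample in 22 columns (12 of another study, 10 repeats) were left out. The deposited tables also hold the authors' DESeq2 fold changes and p-values, which were not used. Authors' mean FPKM of magnetically sorted and dissociated DRG were matched by Ensembl ID.

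Genes at 1 FPKM or more in 2 or more libraries of either ganglion were put on log2(FPKM + 1) and fitted with limma 3.58.1 in R 4.3.3 (terms for ganglion and sex, eBayes with a trend, two-sided, Benjamini-Hochberg adjustment over 12637 genes, threshold 0.05), after tests on simulated data. Fold changes on this scale understate those of low genes. Correlations used two-sided permutation tests (100000 resamples over 10 libraries, exact within DRG; scipy 1.17.1). Transcript lengths and gene positions are from GENCODE M21 (GRCm38); 91.0% of tested genes had a length. The genes followed and the lists were chosen with earlier results of these data known. Genes named are the 9 transcripts, up to 4 genes of each list with the highest mean FPKM, family members set beside a transcript, the 3 genes with the highest r to each transcript and the highest for the median over the 9; Avil, Gfap, Aif1 and Sostdc1 were named after their values were seen, and some genes that meet the rule are not reported here.

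Numbers in the descriptions pair 4 DRG with 4 TG libraries: deviations of same-numbered libraries correlated (0.148 to 0.383, all above 0.1). The numbers in the titles gave -0.357 to 0.0972 and pair nothing. Alternatives were other pseudocounts, filters, rescalings, variance models, blocks for the pairs and each library left out; means and correlations without male DRG replicate 3 and fold changes relative to genes of like transcript length were added after seeing the data.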

Additional observations from a re-analysis of the deposited data

Results flagged for a closer look

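In 18 groups of libraries (9 transcripts, each in DRG and in TG), 2 values lay farther from the rest of their group than Dixon's 95% limit. Chance passes that limit in about 1 group in 20 only where values are normally distributed. It was applied to FPKM and not to log2 values, so that rate may not hold here. Both were in male DRG replicate 3: Fabp7 with 1685 FPKM, against 351 to 654 FPKM in the other 5 DRG libraries, and Sox10 with 14.9 FPKM, against 2.75 to 5.85 FPKM. On the log2 scale Fabp7 was 0.49 and Sox10 1.91 above the median deviation of genes of like transcript length in that library, and Avil was at its lowest there (172 FPKM). The part of transcript length and of sorting in these values was not tested.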

How the results depend on the processing

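No alternative brought any of the 9 transcripts past an adjusted p of 0.05; the smallest was 0.280, for Apoe with array weights, and over all alternatives Apoe stayed between -1.34 and -0.36 (log2, DRG over TG). The count of all genes called between the ganglia (14) became 118 with array weights, 22 over the 8 libraries of the title numbers without a block, 31 without male DRG replicate 3 and female DRG replicates 1 and 3, and 11 to 25 with each library left out in turn (25 without male DRG replicate 3). For sex (3 genes) it was 5 with array weights, 7 without those 3 libraries and 2 to 4 with each left out, and for the interaction (0 genes) 3 with no filter and 0 to 5 with each left out. The replicate block by description number gave 17 genes, against 15 for the same 8 libraries with no replicate block, 0 transcripts in both, and Apoe at -0.96 (adjusted p = 0.633, against 0.918 unpaired); it changed no call of the 9 transcripts.

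Some values changed sign; the cause was not tested. Between the ganglia these were Glul (-0.12), Sox10 (-0.092) and Gja1 (0.037) with array weights; Fabp7 (-0.053), Glul (-0.098) and Sox10 (-0.073) over the 8 libraries of the title numbers, with and without the replicate block; Fabp7 (-0.15), Glul (-0.080), Sox10 (-0.23), Cdh19 (-0.0031) and Gja1 (0.11) without the 3 libraries; and Gja1 (0.063) relative to genes of like transcript length. With each library left out, Fabp7 ran between -0.069 and 0.44, Glul between -0.15 and 0.14, Sox10 between -0.13 and 0.37, Gja1 between -0.26 and 0.11 and Cdh19 between 0.13 and 0.36. Between the sexes they were Fabp7 (-0.093), Kcnj10 (0.0041) and Sox10 (-0.11) with array weights, and Apoe (-0.28), Glul (-0.037), Kcnj10 (0.046) and Sox10 (-0.059) without the 3 libraries, and Fabp7 (-0.0029) and Kcnj10 (0.051) relative to genes of like transcript length; with each library left out, Apoe ran between 0.099 and 0.90, Fabp7 between -0.030 and 0.59, Glul between 0.013 and 0.33, Kcnj10 between -0.25 and 0.0050 and Sox10 between -0.17 and 0.40. Adding 1 to the authors' means raised the ratio of sorted over dissociated to 0.0521 for Kcnj10, 0.189 for Slc1a3, 0.0654 for Sox10 and 0.0822 for Cdh19, which stayed below 0.25. Gja1 rose from 0.226 to 0.272 and so no longer met that limit. Cdh19 was not tested under a filter at an FPKM of 5.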

Other observations

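Fabp3, the heart-type fatty acid binding protein, was listed at 0 in the authors' means of both magnetically sorted and dissociated DRG cells, while every FACS library here had at least 91.7 FPKM of it. Aif1, a macrophage marker, averaged 12.5 ± 4.32 FPKM in DRG and 9.38 ± 3.9 FPKM in TG (SD, n = 6 and 4), while the authors' means were 1.12 FPKM in magnetically sorted and 0.973 FPKM in dissociated cells. Sostdc1, an inhibitor of BMP and Wnt signalling listed with the satellite glia markers, had 81.5 FPKM in male DRG replicate 3, against 30.1 to 36.8 FPKM in the other DRG libraries and 24.2 to 32.6 FPKM in TG.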
